A study of Mus musculus with 13 samples.

Results

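Endothelial marker genes were followed in nuclei sorted from mouse heart ventricles as cardiomyocyte nuclei. The members are 33 genes that mark vascular endothelium, chosen by symbol from the 55536 genes of the count table, and all 33 passed the filter on low counts that left 16125 genes tested. Endothelial cells line the coronary vessels and capillaries, hold the vessel wall closed through junction proteins, and take growth signals through the VEGF and Tie receptors. Notch ligands and receptors pattern the vessels, and transcription factors of the ETS and SOX families hold many endothelial genes active. The heart's capillaries run beside every cardiomyocyte, so endothelial nuclei are among the commonest other nuclei in a heart preparation.

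All mice were of the strain C57BL/6J and received 1 intraperitoneal injection of an adeno-associated virus of serotype 6 on postnatal day 1. The vector carried the human progesterone receptor (PGR) or no insert (control, a vector with a cloning site only by its column name), and hearts were taken on postnatal day 56. There were 3 libraries from PGR females (PGR_F, numbered 1, 2 and 4), 4 from control females (Con_F), 3 from PGR males (PGR_M) and 3 from control males (Con_M). Each library pooled nuclei from 3 to 6 whole ventricles that had passed a sort for Pcm1, a centrosomal protein whose antibody stains the nuclear rim of cardiomyocytes, so single animals cannot be followed. Which promoter drove the insert is not named in the labels, and no group was left without a virus. The p-values measure the spread between these pooled libraries.

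Libraries held 31761146 to 55497850 counts in PGR females, 37646536 to 58948135 in control females, 45269257 to 57905747 in PGR males and 33299624 to 86330792 in control males. Pcm1 itself averaged 127 ± 11.6 CPM (read counts scaled to library size) in PGR females, 115 ± 13.5 in control females, 123 ± 8.05 in PGR males and 125 ± 3.93 in control males (SD). The 17 cardiomyocyte markers summed to between 103300 and 126500 CPM in the 13 libraries. Control female library 4 held 159 counts of 4 Y-linked genes, 1.03% of the male level, against 0.0115% to 0.115% in the other female libraries. The human insert was not measured here, and the mouse gene Pgr lay under the filter.

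Beside the cardiomyocyte genes the endothelial genes were scarce. Gene intervals are of unequal length and mostly hold introns, whose RNA nuclei retain, so levels are set between genes only as CPM per kb of the interval. The median member stood at 0.1 CPM per kb, against 55.1 CPM per kb for the median cardiomyocyte marker and 0.491 CPM per kb for the median of all tested genes. Fibroblast markers had a median of 0.248 CPM per kb and smooth muscle and pericyte markers one of 0.131 CPM per kb. Fabp4, a fatty acid binding protein of capillary endothelium that fat cells also make, was highest among the members at 0.68 CPM per kb, and the transcription factor gene Erg was lowest at 0.0212 CPM per kb. After Fabp4 came the water channel gene Aqp1 with 0.479 CPM per kb, Sox18 with 0.356 and the TGF-beta co-receptor gene Eng with 0.272. Interval length enters this order, with 4489 bases for Fabp4 and 1805 for Sox18, against 227425 for Erg. Sox18 rests on as few as 11 counts in a library. The order is therefore not a rank of RNA amounts, and the part of length in it was not tested. No member lies inside another gene's interval on the same strand, and intervals on the opposite strand were not checked for this.

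**Figure D1:**
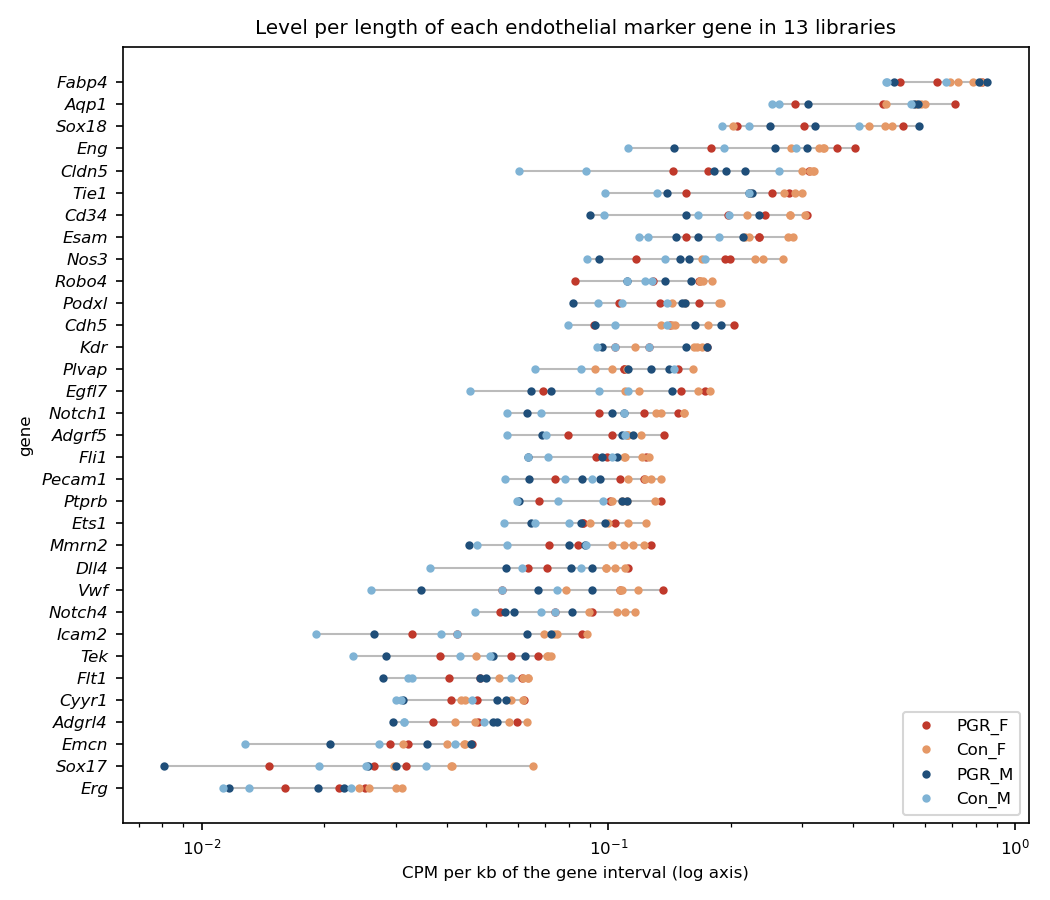
Level of each of the 33 endothelial marker genes in CPM per kb of the gene interval (horizontal log axis), with 1 point for each of the 13 libraries coloured by group and a grey line over the range. The order runs from Fabp4 (mean 0.68 CPM per kb) to Erg (0.0212 CPM per kb), and points of neighbouring genes overlap along most of the plot.

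Summed over the 33 members, the level was 131, 224.4 and 179.9 CPM in PGR female libraries 1, 2 and 4, against 179, 219.3, 208.8 and 204.4 CPM in the 4 control female libraries. It was 103.8, 184.6 and 172.1 CPM in PGR males, against 169.6, 94.3 and 121.4 CPM in control males. Thus 1 library stood low in PGR females, 1 in PGR males and 2 in control males, and none of the control females was among these. The group means were 178.4 ± 46.7 CPM in PGR females, 202.9 ± 17.1 CPM in control females, 153.5 ± 43.5 CPM in PGR males and 128.4 ± 38.1 CPM in control males. In bulk nuclei, fewer endothelial nuclei and less RNA per endothelial nucleus cannot be told apart.

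Junction and surface genes held 8 members. Pecam1 (chromosome 11, 106654217 to 106750628, minus strand, GRCm38), an adhesion molecule at the contacts between endothelial cells, had 7.14, 11.8 and 10.3 CPM in PGR females and 10.8, 13, 11.8 and 12.3 CPM in control females. In PGR males it had 6.13, 8.28 and 9.2 CPM, and in control males 8.8, 5.36 and 7.53 CPM. Each control female library lay above each male library of either vector, while the PGR females overlapped all other groups. Cdh5 (chromosome 8, 104101625 to 104144511, plus strand), the cadherin of endothelial adherens junctions, had 3.96, 8.71 and 6.11 CPM in PGR females and 6.25, 6.14, 5.79 and 7.56 CPM in control females. It had 3.97, 8.09 and 6.98 CPM in PGR males and 5.94, 3.42 and 4.45 CPM in control males, and the 4 groups overlapped. Icam2, a ligand for leukocyte integrins on the endothelial surface, had 0.343, 0.897 and 0.442 CPM in PGR females and 0.78, 0.723, 0.766 and 0.925 CPM in control females. Its PGR males had 0.276, 0.753 and 0.657 CPM and its control males 0.443, 0.199 and 0.405 CPM, so the control males lay below all control females. The sialomucin genes Emcn, Podxl and Cd34, the adhesion gene Esam and the tight junction gene Cldn5 had means between 0.315 and 6.19 CPM. Cldn5 rested on as few as 3 counts in a library.

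VEGF receptors were both present in each library. Kdr (chromosome 5, 75932827 to 75978458, minus strand), the main signalling receptor for VEGF-A, had 4.74, 7.97 and 5.77 CPM in PGR females and 5.28, 7.75, 7.54 and 7.4 CPM in control females. It had 4.4, 8 and 7.06 CPM in PGR males and 5.74, 4.27 and 4.76 CPM in control males. The groups overlapped, and the control males were the one group with no library above 5.74 CPM. Flt1 (chromosome 5, 147561604 to 147726011, minus strand), which binds VEGF-A tightly and limits its action on Kdr, had 6.67, 10.1 and 7.96 CPM in PGR females and 10.4, 10.4, 10.1 and 8.83 CPM in control females. Its levels were 4.59, 7.94 and 8.21 CPM in PGR males and 9.49, 5.41 and 5.29 CPM in control males, with library 1 of the control males inside the female range.

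The Tie receptors and the phosphatase gene Ptprb, whose product dampens Tie2 signalling, followed the same libraries. Tek (chromosome 4, 94739289 to 94874976, plus strand), which encodes Tie2, the receptor for angiopoietins, had 5.24, 9.12 and 7.83 CPM in PGR females and 6.41, 9.64, 9.78 and 9.6 CPM in control females. It had 3.85, 8.43 and 7.06 CPM in PGR males and 6.93, 3.19 and 5.85 CPM in control males. Low libraries occurred in each group, and the control female range began beneath the highest control male. Tie1 (chromosome 4, 118471191 to 118490061, minus strand), a partner receptor of Tie2, had 2.93, 5.24 and 4.78 CPM in PGR females and 4.21, 5.67, 5.43 and 5.1 CPM in control females. It had 2.63, 4.24 and 4.19 CPM in PGR males and 4.19, 1.85 and 2.49 CPM in control males, so that the lowest control female lay just above the highest control male. Ptprb averaged 11.5 ± 3.83 CPM in PGR females, 12.9 ± 1.41 CPM in control females, 10.6 ± 3.26 CPM in PGR males and 8.81 ± 2.12 CPM in control males.

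Transcription factors of the ETS family were Erg, Fli1 and Ets1, and those of the SOX family were Sox17 and Sox18. Erg (chromosome 16, 95359169 to 95586593, minus strand), which keeps endothelial genes active, had 3.65, 5.73 and 4.93 CPM in PGR females and 5.86, 7.07, 6.82 and 5.53 CPM in control females. It had 2.66, 5.1 and 4.39 CPM in PGR males and 5.3, 2.56 and 2.99 CPM in control males. All control females lay above all male libraries. Ets1, which lymphocytes also express, had 10.5, 12.6 and 10.6 CPM in PGR females and 11, 15.1, 13.6 and 12.1 CPM in control females. It had 7.84, 11.9 and 10.4 CPM in PGR males and 9.74, 6.75 and 8 CPM in control males, and control females and control males did not overlap. Fli1 averaged 12.7 ± 2.01 CPM in PGR females, 14.1 ± 1.01 in control females, 10.6 ± 2.64 in PGR males and 9.52 ± 2.45 in control males. Sox17, a factor of arterial endothelium, had 0.0936, 0.204 and 0.17 CPM in PGR females and 0.191, 0.42, 0.263 and 0.264 CPM in control females. It had 0.0518, 0.194 and 0.164 CPM in PGR males and 0.163, 0.228 and 0.125 CPM in control males. These Sox17 values stand on 3 to 18 counts per library, so single libraries say little about it. Sox18, the other SOX member, averaged between 0.496 and 0.729 CPM in the 4 groups.

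The bases before the members' starts were read for letters that ETS, SOX and KLF factors are known to bind. RefSeq's table for GRCm38.p6 gave a start for 18 of the 33 members. The ETS letters CAGGAA or CCGGAA, on either strand, stood within 250 bases before the start in 12 of these 18 (66.7%), against 36.3% of 20595 promoters. For 3 of the 12, Notch1, Cyyr1 and Egfl7, RefSeq's start lay 12841, 3024 and 1069 bases from the deposited gene start, and without them the count was 9 of 15 (60%). The SOX letters ACAATG stood in 1 of 18 (5.56%, against 10.2%) and the KLF letters CACCC in 13 of 18 (72.2%, against 52.7%). None of these letter strings contains another, though matches can share end bases, and a match is a description, not a binding site. Promoters of 3 members are shown as examples with 1, 2 and no ETS match, read along the gene's strand with the ETS letters or their reverse complement in capitals. Tek was chosen for display after its matches were seen. The intervals are chr5:75978456-75978705 on the minus strand for Kdr, chr4:94739039-94739288 on the plus strand for Tek, and chr16:95586594-95586843 on the minus strand for Erg.
Kdr: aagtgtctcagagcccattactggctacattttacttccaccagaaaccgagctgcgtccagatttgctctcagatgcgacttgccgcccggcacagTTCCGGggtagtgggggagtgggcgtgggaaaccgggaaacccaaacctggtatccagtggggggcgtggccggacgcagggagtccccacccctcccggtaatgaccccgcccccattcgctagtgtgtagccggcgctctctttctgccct
Tek: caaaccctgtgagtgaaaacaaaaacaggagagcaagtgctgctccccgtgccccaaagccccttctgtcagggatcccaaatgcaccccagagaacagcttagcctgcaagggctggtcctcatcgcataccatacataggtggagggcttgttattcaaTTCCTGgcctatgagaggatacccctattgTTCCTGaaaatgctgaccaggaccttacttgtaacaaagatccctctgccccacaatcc
Erg: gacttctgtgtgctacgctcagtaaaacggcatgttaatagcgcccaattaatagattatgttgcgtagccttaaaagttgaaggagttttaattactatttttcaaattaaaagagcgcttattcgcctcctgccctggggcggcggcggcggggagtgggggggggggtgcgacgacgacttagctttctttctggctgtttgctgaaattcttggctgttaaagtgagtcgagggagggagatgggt
The Kdr match ends 148 bases before the start, and the Tek matches end 84 and 54 bases before it. Nothing follows from a missing match in the Erg window about any factor.

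Notch pathway genes held 3 members. Notch4, a Notch receptor found mainly in endothelium, had 1.31, 2.2 and 1.79 CPM in PGR females and 2.55, 2.66, 2.82 and 2.17 CPM in control females. It had 1.35, 1.42 and 1.97 CPM in PGR males and 1.79, 1.14 and 1.65 CPM in control males. Control females were the high group, and only PGR female library 2 reached into their range. Notch1, a receptor of many tissues, averaged 7.16 ± 1.55 CPM in PGR females, 8.42 ± 0.694 CPM in control females, 5.37 ± 1.47 CPM in PGR males and 4.57 ± 1.62 CPM in control males. Dll4, the ligand that tip cells and arterial cells present, averaged 0.835 ± 0.268 CPM in PGR females, 1.05 ± 0.0548 CPM in control females, 0.772 ± 0.183 CPM in PGR males and 0.622 ± 0.252 CPM in control males.

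Other receptors were Robo4, Eng and the adhesion G protein-coupled receptors Adgrl4 and Adgrf5. Robo4, a guidance receptor that stabilises vessels, had 1.09, 2.2 and 1.7 CPM in PGR females and 2.37, 2.26, 2.22 and 2.22 CPM in control females. Its PGR males had 1.47, 1.83 and 2.11 CPM and its control males 1.69, 1.62 and 1.46 CPM. The 4 control female values lay close together and above every other library. Eng averaged 11.4 ± 4.33 CPM in PGR females, 11.6 ± 0.975 CPM in control females, 8.53 ± 3 CPM in PGR males and 7.12 ± 3.19 CPM in control males, with an interval that overlaps Fpgs on the opposite strand. Adgrl4 had means between 4 and 5.61 CPM, and Adgrf5, which is also made in lung epithelium, had means between 7.82 and 11.3 CPM.

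Matrix and secreted members were Vwf, Mmrn2 and Egfl7. Vwf, the clotting protein that endothelium and platelets store, averaged 13.9 ± 5.74 CPM in PGR females, 14.4 ± 2.35 CPM in control females, 8.98 ± 3.96 CPM in PGR males and 7.26 ± 3.44 CPM in control males. Its highest library had 5.21 times the level of its lowest. Mmrn2, a matrix protein of vessel walls, averaged 2.72 ± 0.844 CPM in PGR females, 3.23 ± 0.254 CPM in control females, 2.05 ± 0.645 CPM in PGR males and 1.84 ± 0.617 CPM in control males. Egfl7, the host gene of a microRNA of endothelium, averaged between 1.1 and 1.87 CPM over the groups, and shares part of its interval with Gm20532, Mir126a and, on the opposite strand, Agpat2.

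The remaining 5 members were Fabp4, Aqp1, Nos3, Plvap and Cyyr1. Fabp4 had 2.34, 3.71 and 2.88 CPM in PGR females and 3.69, 3.24, 3.11 and 3.54 CPM in control females. It had 2.26, 3.66 and 3.84 CPM in PGR males and 3.04, 2.17 and 2.18 CPM in control males, which lay below all control females and overlapped PGR males. Cyyr1, a small membrane protein gene, had 5.4, 8.16 and 6.26 CPM in PGR females and 5.72, 8.12, 7.61 and 5.87 CPM in control females. The PGR males had 4.13, 7.03 and 7.39 CPM of Cyyr1 and the control males 6.08, 3.96 and 4.08 CPM, and all 4 groups overlapped. Nos3, which makes the vasodilator nitric oxide and is also known in cardiomyocytes, had 2.31, 3.81 and 3.91 CPM in PGR females and 3.34, 4.5, 4.71 and 5.29 CPM in control females. Its PGR males had 1.87, 3.1 and 2.96 CPM and its control males 3.4, 1.74 and 2.71 CPM, so that 1 control male lay just inside the control female range. Plvap, which forms the diaphragms of fenestrae and caveolae, had 1.53, 1.53 and 2.08 CPM in PGR females and 1.3, 1.42, 1.56 and 2.25 CPM in control females. It had 1.78, 1.98 and 1.56 CPM in PGR males and 0.92, 1.2 and 2.02 CPM in control males, and its order of libraries was unlike that of the other members. Aqp1 averaged 5.94 ± 2.56 CPM in PGR females, 6.78 ± 0.649 CPM in control females, 5.86 ± 1.83 CPM in PGR males and 4.33 ± 2.09 CPM in control males.

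**Figure D2:**
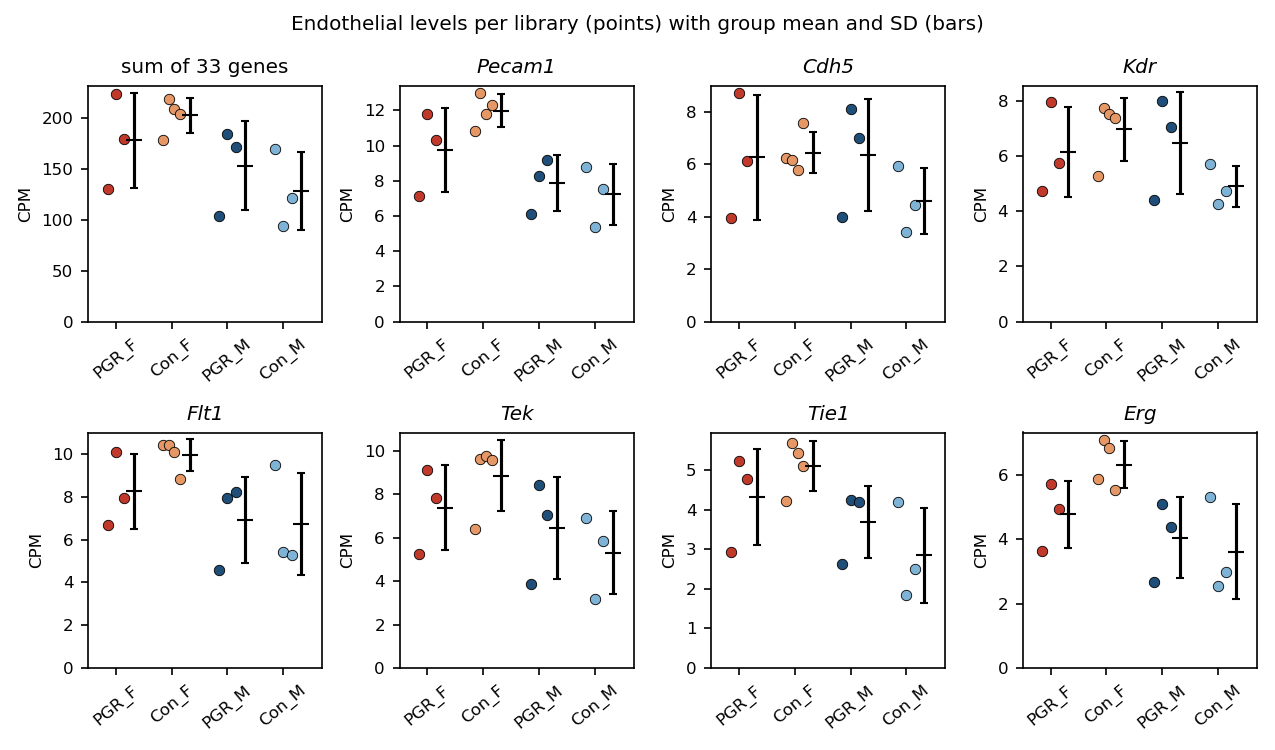
CPM per library (points, coloured by group) with group mean and SD (bars) for the sum of the 33 genes and for Pecam1, Cdh5, Kdr, Flt1, Tek, Tie1 and Erg. Control females hold the highest mean in each panel, 202.9 CPM for the sum. PGR_F 1 and PGR_M 1 are the lowest of their groups in every panel, and so is Con_M 2 except for Flt1.

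The 33 genes ranked the libraries alike. Control male library 2 was among the 4 lowest of 13 libraries for 32 of 33 members, control male library 3 for 30, PGR male library 1 for 30 and PGR female library 1 for 29. Over all tested genes control male library 2 was among the 4 lowest for 31.4%, control male library 3 for 30.7%, PGR male library 1 for 32.2% and PGR female library 1 for 36%. Of these 4, PGR female library 1, control male library 3 and control male library 2 had the 3 lowest totals of all 13 libraries (31761146, 33299624 and 36163947 counts), while PGR male library 1 had 57905747 counts, the third highest. The part of depth in the order was not tested. At the other end, PGR female library 2 and control female library 2 were among the 4 highest for 28 members each. Control male library 2 was the lowest library of all for 21 members and PGR male library 1 for 7. Plvap was lowest in control male library 1 and Robo4 in PGR female library 1.

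The spread of the members was therefore largely common to them. The SD of log2 CPM over the 13 libraries had a median of 0.471 over the members, and of 0.184 once each library's median over the members was subtracted, with 32 of 33 members having the lower value. Plvap was the exception, at 0.36 before and 0.518 after. Of the others, Sox17 and Cldn5 kept the widest spread, with 0.56 and 0.553 after subtraction. The biological coefficient of variation within groups, as edgeR fits it, had a median of 0.219 over the members and 0.129 over all tested genes. For 8785 tested genes within the members' range of mean CPM, the SD of log2 CPM over the 13 libraries had a median of 0.3. For the members it was 0.443, both with a prior count of 2 added.

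**Figure D3:**
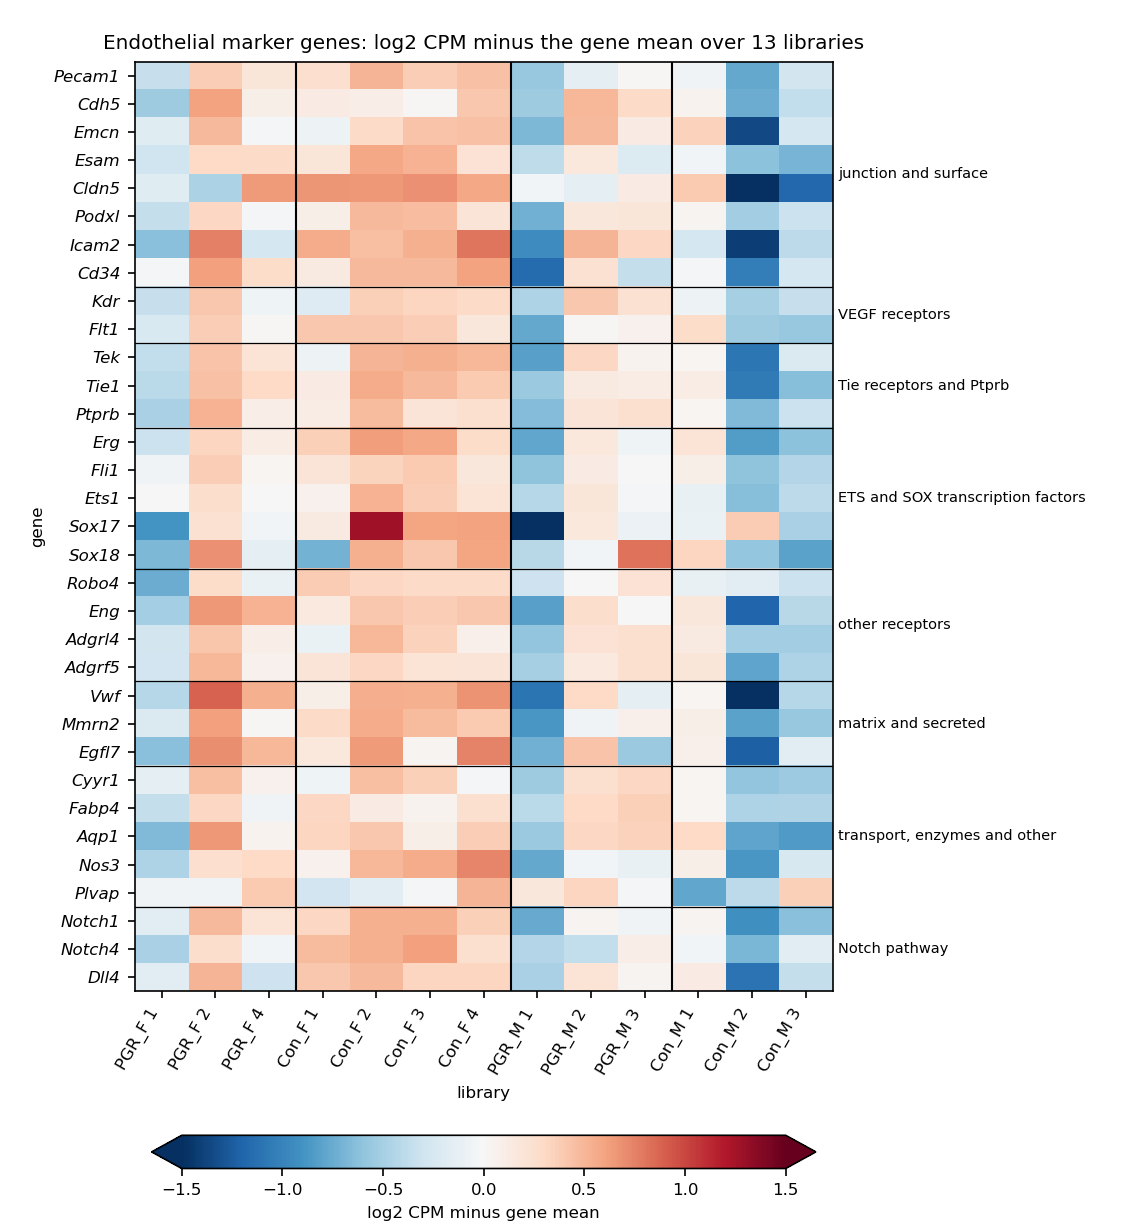
log2 CPM of each of the 33 genes minus its mean over 13 libraries (colour scale), with libraries in columns by group and genes in rows by role. Columns PGR_F 1, PGR_M 1, Con_M 2 and Con_M 3 are blue for nearly all genes, among the 4 lowest for 29, 30, 32 and 30 of 33 members. Plvap runs against PGR_M 1 (1.78 CPM) and Con_M 3 (2.02 CPM), but not Con_M 2 (1.2 CPM), beside a mean of 1.62 CPM. Sox17 runs against Con_M 2, with 0.228 CPM there and a mean of 0.195 CPM.

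Markers of other non-myocyte cells were low in some of the same libraries. PGR male library 1 was among the 4 lowest for 17 of 18 fibroblast markers, control male library 2 for 16, control male library 3 for 11 and PGR female library 1 for 9. PGR male library 3 was there for 10 fibroblast markers, but for 2 of the 33 endothelial members. For the 13 smooth muscle and pericyte markers the counts were 10 for control male library 2, 10 for PGR female library 1, 8 for PGR male library 1 and 7 for control male library 3. For the 16 macrophage markers they were 12 for control male library 2, 11 for control male library 3, 10 for PGR male library 1 and 6 for PGR female library 1. For PGR female library 1 that was 37.5%, near its 36% of all tested genes, and it was among the 4 highest for 5 of the 16. Cardiomyocyte markers showed another order for control males, with library 2 among the 4 lowest for 0 of 17 and library 3 for 2. PGR female library 1 was there for 10 of 17 (58.8%, against 36% of all tested genes). PGR male library 1 was there for 9 of 17 (52.9%, against 32.2%). So were PGR female library 4 (against 26.7%) and PGR male library 2 (against 29.3%), for 9 of 17 each. Control female libraries 2 and 3 were there for 8 of 17 each (47.1%, against 32.2% and 32.8%). These last 4 libraries were among the 4 lowest for only 0 or 1 of the 33 endothelial members.

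**Figure D4:**
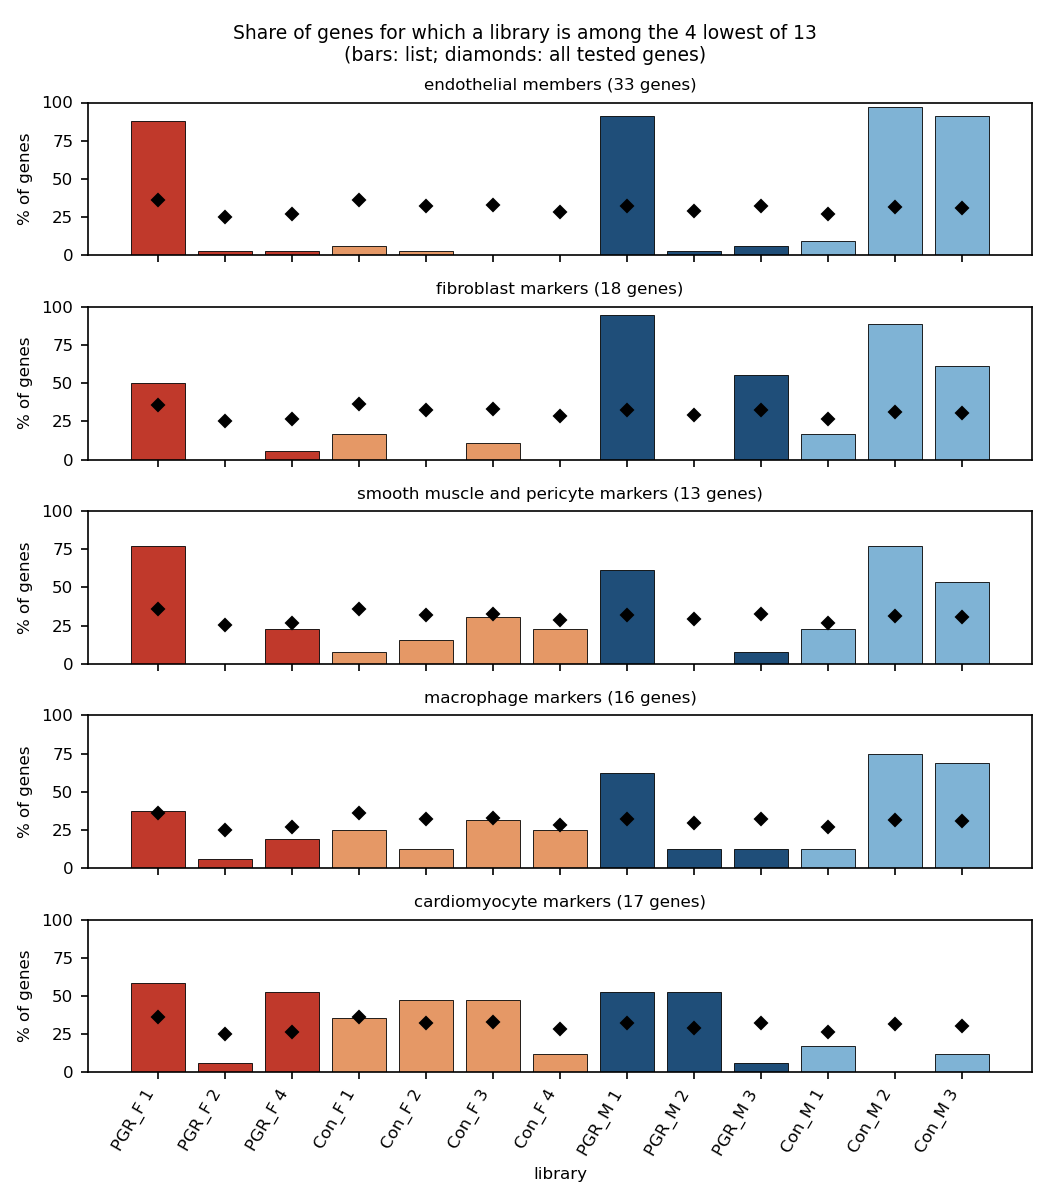
Percent of genes (vertical axis) for which each library was among the 4 lowest of 13, for the endothelial members and 4 other marker lists (bars), beside the percent over all tested genes (diamonds). For the endothelial members the bars of 4 libraries stand at 87.9% to 97%, where the diamonds lie between 30.7% and 36%.

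Between the sexes under the control vector, each endothelial gene had a higher fitted level in females, and no member passed an adjusted p of 0.05. Control females exceeded control males for 33 of 33 members, against 50% of all tested genes, at a median log2 fold change of 0.68 (range 0.28 for Plvap to 1.13 for Icam2), beside a median of -0.00014 over all tested genes. Adjusted over all genes, 0.229% of tested genes were called in edgeR's quasi-likelihood test and 0 of the members. An unadjusted p under 0.05 was reached by 22 members, all higher in females, against 7.36% of all tested genes. All control female libraries lay above all control male libraries for 19 members, against 6.41% of tested genes. These counts, and those in the comparisons that follow, are not counts of independent genes. The members move together over the libraries and were chosen with earlier results of these data known.

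The junction genes Pecam1 and Esam, the Notch receptors and Ets1 had the smallest p in this comparison. Ets1 was 1.57-fold higher in control females (log2 0.65 ± 0.16 SE, adjusted p 0.117 in edgeR), and Pecam1 was 1.65-fold higher (log2 0.72 ± 0.19, adjusted p 0.161). Notch1 was 1.81-fold higher with an adjusted p of 0.181, Esam 1.69-fold with 0.182 and Notch4 1.65-fold with 0.206. By role, 6 of 8 junction and surface genes, both VEGF receptors, 3 of 3 Notch genes and 3 of 5 ETS and SOX genes had an unadjusted p under 0.05. So did 2 of 3 genes of the Tie group, 2 of 3 matrix and secreted genes, 3 of 5 transport and enzyme genes and 1 of 4 other receptors. Without control male library 1, the highest of its group, 4 members (Notch1, Tie1, Ets1 and Erg) passed the threshold and the median log2 fold change was 0.94. In that fit 99 of 16381 tested genes (0.604%) were called. Without control male library 2, the lowest, none passed, 11 had an unadjusted p under 0.05 and the median was 0.44. Without control female library 4, which held the Y-linked counts, 33 members were still higher in females. There 18 members had an unadjusted p under 0.05 and 20 had no overlap between the groups. With 1 control female fewer, no overlap also comes more easily. Shares of all tested genes at an unadjusted p under 0.05 or with no overlap were not taken for fits leaving out a library.

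Markers of other non-myocyte cells stood on the same side of this difference. Of 18 fibroblast markers 17 had a higher fitted level in control females, at a median log2 fold change of 0.71, and their summed level was 1204 to 1426 CPM in control females and 1199 to 1526 CPM in control males. Of the sum, Lama2, a laminin gene that cardiomyocytes also express, made up most, with 1110 ± 75.8 CPM in control females and 1200 ± 151 CPM in control males. Macrophage markers were higher in control females for 14 of 16 (median 0.46), smooth muscle and pericyte markers for 11 of 13 (median 0.20) and cardiomyocyte markers for 7 of 17 (median -0.06). All 18 fibroblast markers and 16 of 18 macrophage markers passed the filter, none of these lists had a gene past an adjusted p of 0.05, and their part in the difference was not tested.

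In females the PGR vector went with slightly lower endothelial levels, none past the threshold. PGR females were below control females for 32 of 33 members, against 49.3% of tested genes, at a median log2 fold change of -0.20 and 0 members called in edgeR's quasi-likelihood test (0% of all tested genes). Notch4 had a log2 fold change of -0.51 ± 0.21 (SE, unadjusted p 0.0241, adjusted p 0.399 in edgeR). Robo4 had log2 -0.43 ± 0.20 (unadjusted p 0.0466, adjusted p 0.45). It was the 1 member of 33 whose 3 PGR female libraries lay below all 4 control females, by 2.2 against 2.22 CPM. The share of all tested genes with no overlap was not taken in this comparison, so this is a description only. Notch4 and Robo4 were the members with an unadjusted p under 0.05 in this direction, where 5.15% of tested genes had one. Sox17 (log2 -0.78 ± 0.43), Nos3 (-0.40 ± 0.25) and Pecam1 (-0.29 ± 0.19) came next, with adjusted p from 0.528 to 0.603. Plvap alone was above 0, at 0.09 ± 0.25. Without PGR female library 1, 12 members were above 0, the median was -0.07 and no member had an unadjusted p under 0.05. Without PGR female library 2 the median was -0.39, with 1 member above 0 and 4 at an unadjusted p under 0.05. Without control female library 4 the median was -0.21, with 5 members above 0.

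In males the direction was the other way round, again with no member past the threshold. PGR males were above control males for 31 of 33 members, against 50.1% of tested genes, at a median log2 fold change of 0.25. No member was called in edgeR's quasi-likelihood test (0% of tested genes), and the smallest adjusted p was 0.726. Fabp4 had log2 0.38 ± 0.22, Ets1 0.29 ± 0.17, Kdr 0.38 ± 0.23, Cyyr1 0.37 ± 0.24 and Plvap 0.41 ± 0.27 (SE). Sox17 at -0.36 and Nos3 at -0.02 were below 0. Without control male library 2 the median was 0.03 and 20 members were above 0, and without control male library 1 it was 0.52.

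The vector effects in females and males, which use different libraries, were set against each other in 1 term of the same fit. The female effect was below the male effect for 33 of 33 members, against 49% of tested genes, with a median difference of -0.43 on the log2 scale. No member passed (0% of tested genes were called, and every member's adjusted p was 1 in edgeR's quasi-likelihood test). Ets1 had -0.49 ± 0.23 (SE, unadjusted p 0.0483) and was the single member with an unadjusted p under 0.05, where 1.54% of tested genes had one in that direction. Robo4 had -0.60 ± 0.29, Icam2 -1.08 ± 0.55, Fabp4 -0.56 ± 0.30 and Notch4 -0.54 ± 0.31. Without control male library 1, 15 members had an unadjusted p under 0.05 and the median was -0.70, and without control male library 2 none had and the median was -0.31. Averaged over the sexes, the vector effect had a median of 0.0029 over the members (range -0.57 for Sox17 to 0.25 for Plvap), with 0 members and 0.0062% of tested genes called.

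The sexes were compared under the PGR vector as well. PGR females were above PGR males for 27 of 33 members, against 53.1% of tested genes, at a median log2 fold change of 0.17. Of the tested genes 0.143% were called in edgeR's quasi-likelihood test, and 0 members. Cd34, a sialomucin of endothelium and of some fibroblasts, had the smallest p, with log2 0.65 ± 0.31 (SE, adjusted p 0.717). Its PGR females averaged 5.58 ± 1.24 CPM and its PGR males 3.59 ± 1.63 CPM, and the libraries overlapped. Without PGR male library 1 the median was -0.04, with 16 members above 0. Without PGR female library 1 it was 0.33, with 33 members above 0 and 4 at an unadjusted p under 0.05, and without PGR female library 2 it was 0.0415, with 18 above 0. All 18 fibroblast markers were above 0 here, with a median of 0.50 and none past the threshold.

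**Figure D5:**
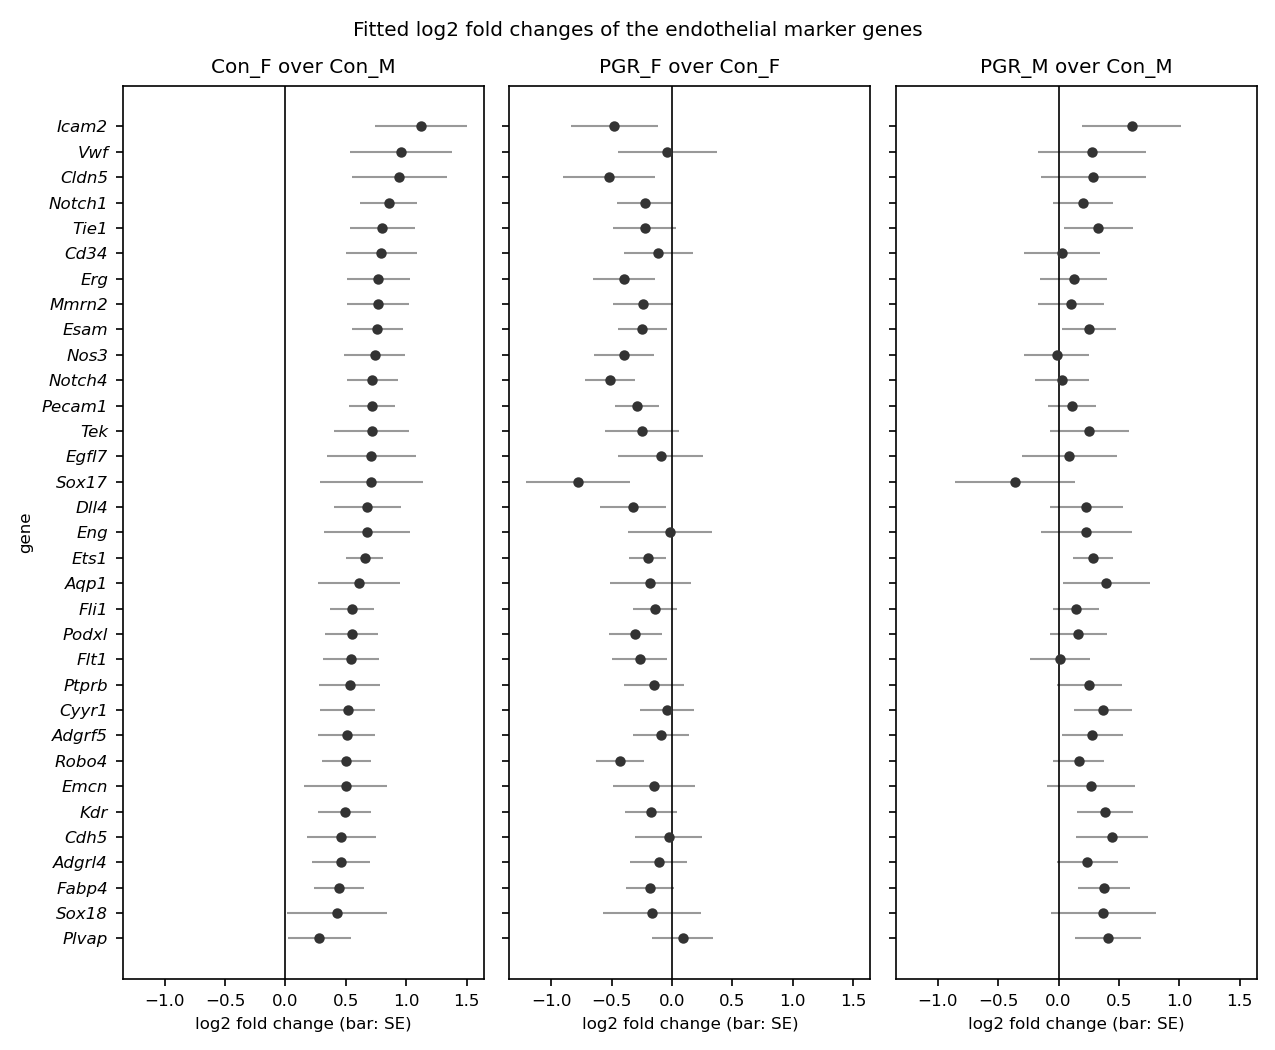
Fitted log2 fold change of each member (points) with its standard error (bars) for control females over control males, PGR females over control females and PGR males over control males. The points centre on medians of 0.68, -0.20 and 0.25. Control females over control males shares its libraries with each of the other 2 comparisons, which share none, and no point passed an adjusted p of 0.05.

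Ligands and partners of the endothelial receptors were taken as a list of 54 genes, of which 51 passed the filter and none passed an adjusted p of 0.05 in any of the 6 comparisons. In control females over control males 41 of 51 were above 0, at a median log2 fold change of 0.25, where 50% of all tested genes were above 0. An unadjusted p under 0.05 was reached by 16, all higher in females, against 7.36% of all tested genes. Named after their values were seen, 2 of these were Nrp2, a VEGF co-receptor of veins and lymphatics, with log2 0.79 ± 0.22 (adjusted p 0.193), and Acvrl1, the BMP9 receptor that works with Eng, with 0.94 ± 0.26 (adjusted p 0.183). The list's 3 genes with the highest CPM, not set per length, Vegfa, Nrp1 and Angpt1, are also made by cardiomyocytes. Vegfa, the ligand of Kdr and Flt1, averaged 631 ± 60.1 CPM in PGR females, 836 ± 93.1 CPM in control females, 827 ± 66.1 CPM in PGR males and 834 ± 161 CPM in control males. Its log2 fold change was -0.41 ± 0.13 for PGR over control in females (unadjusted p 0.00595, adjusted p 0.325 in edgeR) and -0.01 ± 0.14 in males. Nrp1, a co-receptor for VEGF-A, averaged 717 ± 117 CPM in PGR females, 582 ± 165 in control females, 883 ± 38.4 in PGR males and 698 ± 122 in control males. Angpt1, the activating ligand of Tie2, averaged 533 ± 110 CPM in PGR females, 387 ± 58.5 in control females, 406 ± 120 in PGR males and 373 ± 187 in control males.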

How the data were processed

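Per the labels' protocols, RNA from Pcm1-sorted nuclei was depleted of ribosomal RNA and made into directional libraries. For 13 libraries the authors deposited raw gene counts, once for 55536 genes and once, with equal values, for 15645 genes that average 10 counts or more. Per the submitters' processing notes, featureCounts 1.5.0 and STAR 2.5.3a are listed, with GRCm38 and mm10 as build names and no roles stated. Coordinates are those of the deposited table. Genes kept by filterByExpr (16125) were fitted with edgeR 4.0.16 (TMM scaling, quasi-likelihood test, robust) in R 4.3.3, with the 4 groups of vector and sex in 1 model and Benjamini-Hochberg adjustment over all tested genes at 0.05. CPM are TMM-scaled, and CPM per kb divides by the gene interval, introns included. Alternatives were other scalings, no filter, the smaller table, DESeq2 1.42.0, limma 3.58.1 (voom), only the groups compared, a replicate block and leaving out each library. The fit was tested on simulated data.

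The members and all lists were chosen with earlier results of these data known. All 33 members are named, with every library's value for 7 defining markers and for the 5 with the smallest p in each vector comparison and in the difference between the sexes. Of the other lists the 3 genes with the highest mean CPM were eligible. Counts of members at an unadjusted p under 0.05, above 0 and with groups apart were added after seeing the data. Libraries that share a number did not deviate together in all pairs, so numbers were not used as pairs. In none of the 15 pairs of libraries within a group did the counts agree within sampling noise. Promoters of the other 15 members were not used here.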

Additional observations from a re-analysis of the deposited data

Results flagged for a closer look

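By the gap to its nearest neighbour over the range of rounded CPM, a single control female library was flagged for 4 members. In all, 34 groups of 4 libraries were examined (the 33 members and their sum). Chance alone picks out about 1 in 20 such groups when they are independent. These groups share the same 4 libraries and the genes move together, so 4 of 34 cannot be read against that rate. Kdr had 5.28 CPM in control female library 1, the lowest, with 7.4 to 7.75 CPM in the others. Tek had 6.41 CPM in the same library, with 9.6 to 9.78 CPM in the others, and Eng had 10.2 CPM there, with 11.9 to 12.2 CPM in the others. Adgrf5 had 11.9 CPM in control female library 2, the highest, with 11 to 11.1 CPM in the others. These values lie close together, and the Adgrf5 flag rests on their rounding. In rounded CPM the gap to the nearest library took up 0.858 of the range for Kdr, 0.947 for Tek, 0.85 for Eng and 0.889 for Adgrf5. Library 1 had the largest total of the control females, 58948135 counts.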

How the results depend on the processing

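The members' median log2 fold change changed sign in 2 comparisons: between the sexes under PGR it was -0.04 without PGR male library 1, and for the averaged effect it ran from -0.0769 to 0.155 leaving out 1 library. The number of all genes called was 0, 0, 1, 0, 23 and 37 for the vector in females, in males, averaged over the sexes, its difference between the sexes, the sexes under PGR and the sexes under control. In that order it was 25, 12, 146, 1, 51 and 131 of 31462 tested genes with no filter on low counts. With DESeq2 it was 81, 29, 334, 1, 80 and 224 of 16125 genes. Scaling by total counts alone gave 5 for the averaged effect. Fits on only the 2 groups compared gave 1 for the vector in males, 56 for the sexes under PGR and 17 for the sexes under control. Leaving out 1 library gave 0 to 20 in females, 0 to 3 in males, 1 to 338 averaged, 10 to 44 under PGR and 14 to 99 under control. The highest came without control female library 4 in females, averaged and under PGR, without PGR male library 2 in males, and without control male library 1 under control. The cause was not tested.

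Members called between the sexes under control were 0 as reported, 1 with no filter (Ets1), 3 with DESeq2 (Ets1, Notch1 and Pecam1), and 0 to 4 leaving out 1 library. The no-filter and DESeq2 fits also called more of all tested genes, with the totals given above. limma-voom called no member. In the other 5 comparisons no alternative called a member. The replicate block gave 35 genes for the sexes under PGR and called no member. Correlations of same-numbered libraries ran from -0.245 to 0.247 over 16 pairs, and the numbers were not used as pairs. Libraries with different numbers were not compared, and whether some numbers mark a shared batch was not tested. Other scalings shifted the median log2 fold change of all genes by at most 0.0577. Sox17 and Cldn5, with 3 counts in their lowest library, are limited by depth.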

Other observations

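Endothelial subtype markers outside the 33 members were read as 5 further lists. In control females over control males 10 of 12 arterial markers were above 0 (median log2 0.48) and 10 of 12 capillary markers (median 0.38), against 50% of all tested genes. So were 5 of 6 venous markers (median 0.59), 7 of 9 endocardial markers (median 0.30) and 5 of 7 lymphatic markers (median 0.50), with no gene of these lists past an adjusted p of 0.05 in edgeR's quasi-likelihood test. For PGR over control, 1 of 12 capillary markers was above 0 in females (median -0.25) and 10 of 12 in males (median 0.18). The other 4 lists differed less from 0 in females. There 4 of 12 arterial (median -0.10), 2 of 6 venous (-0.11), 3 of 9 endocardial (-0.02) and 4 of 7 lymphatic markers (0.11) were above 0. In males it was 9 of 12 arterial (median 0.12), 6 of 6 venous (0.18), 7 of 9 endocardial (0.06) and 5 of 7 lymphatic markers (0.16). Unc5b, a netrin receptor of arterial endothelium, averaged 5.04 ± 0.441 CPM in PGR females, 6.83 ± 0.309 CPM in control females, 5.58 ± 0.206 CPM in PGR males and 4.95 ± 1.17 CPM in control males, and was named after its values were seen. Its log2 fold change was -0.43 ± 0.14 for PGR over control in females (adjusted p 0.326 in edgeR). In that comparison 1 of 12 arterial markers had an unadjusted p under 0.05, in the lower direction, where 5.15% of tested genes had one. Unc5b thus does not stand for its list.

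Several genes used as endothelial subtype markers are expressed by cardiomyocytes as well, and stood above the members per length, with 9.3 CPM per kb for Cd36, 6.74 for Gata4 and 4.01 for Prox1, against at most 0.68 CPM per kb for a member. Cd36, a fatty acid receptor, averaged 1040 ± 202 CPM in PGR females, 808 ± 191 CPM in control females, 1220 ± 164 CPM in PGR males and 988 ± 157 CPM in control males. Prox1, a lymphatic and cardiac transcription factor, averaged 207 ± 34.2 CPM in PGR females, 186 ± 53.3 CPM in control females, 248 ± 33.3 CPM in PGR males and 212 ± 44.6 CPM in control males. Gata4, a cardiac and endocardial factor, averaged 475 ± 33.2 CPM in PGR females, 483 ± 42.5 CPM in control females, 492 ± 45.2 CPM in PGR males and 515 ± 43.8 CPM in control males. The lists that hold them therefore sum mostly to these genes.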
